A study of Homo sapiens with 5 samples.

Results

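ZBTB7A sites that were called both without and with androgen in VCaP cells are described here, by how far each site moved in rank, width and summit position. VCaP is a human prostate cancer cell line with an active androgen receptor. Cells were held in phenol-red-free medium with 5% hormone-depleted serum (CSS) and given vehicle (the CSS group, 2 libraries) or 10 nM of the androgen dihydrotestosterone (the DHT group, 2 libraries) for 4 hours, and a further library came from cells in 10% full serum (FBS). All libraries were made with the same antibody to ZBTB7A, and each condition is represented by 1 peak list. The labels do not say whether both libraries of a condition came from separate cultures, and values per library were not used. Replicate spread is therefore unknown, and the conditions are compared without a p-value.

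Members were formed by a fixed rule. On chromosomes 1 to 22 and X, each of the 36674 CSS peaks took the DHT peak with which it shared the most bases, with a minimum of 1 bp, among 33236 DHT peaks. This gave 20884 pairs, which hold 56.9% of the CSS peaks (exact 95% interval 56.4 to 57.5%) and 20169 distinct DHT peaks, out of 196770 peaks deposited in the series. In 18252 pairs (87.4%) neither peak overlapped any other peak of the other list, and these are called exclusive pairs. In 1128 pairs the CSS peak overlapped 2 or more DHT peaks, and in 1546 pairs the DHT peak overlapped 2 or more CSS peaks. Positions are on hg19, written with a first base of 1. Without an hg19 annotation or sequence, loci carry coordinates only, and which genes they lie in was not analysed here.

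ZBTB7A is a transcription factor of the BTB and zinc finger family. Its zinc fingers bind GC-rich DNA and its BTB domain forms dimers and recruits co-repressors. It is known for silencing fetal globin genes, for repressing glycolysis genes and for roles in cancer that differ between tissues. Dihydrotestosterone activates the androgen receptor, a nuclear receptor that then binds DNA and changes transcription within hours, which makes a 4 hour treatment an early time point. The comparison asks where ZBTB7A sat differently on chromatin after this treatment.

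The number of reads behind each peak could be recovered, and it sets how the ranks can be read. The fold enrichment and −log10 p deposited for a peak fix a pair of values, the number of extended reads over the summit and the local background, if the fold is (reads + 1) over (background + 1) and p is the Poisson tail, as MACS2 computes them. A whole number of reads matched the deposited −log10 p within 0.00012 for 100% of the peaks of each list, and no peak had another whole number within that tolerance. Every background was either the minimum of its list (0.255 in CSS, 0.192 in DHT) or a whole number of reads in a 10 kb window, spread over the narrowest peak width of the list (191 bp in CSS, 198 bp in DHT). MACS2 sets the background in this way when the ChIP library itself serves as its background. This is an inference from the values, since the labels do not mention a control library. The minima correspond to 1.34 reads per kb in CSS and 0.969 in DHT, so the DHT list rests on 0.726 times the depth of the CSS list, and to 6.02 reads per kb in FBS.

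Most pairs rested on few reads. The median pair had 10 CSS reads (quartiles 7 and 13) and 9 DHT reads (7 and 12) over its summits, and the counts ran from 3 to 348 in CSS and from 3 to 301 in DHT. Ranks were coarse for the same reason. Where the background was at its minimum, CSS peaks with 4, 5, 6, 7 and 8 reads stood at percentiles 8.19, 27.9, 49.1, 64.8 and 75.5 of their list, and DHT peaks with the same counts at 10.9, 34.6, 56.8, 71.6 and 81.0. A single further read at the same background would have moved the median paired peak by 8.11 percentile points in CSS and by 10.1 in DHT. In the lower part of the lists, up to the 50th percentile, the step was 16.4 points in CSS and 17.6 in DHT, and above the 90th it was 0.907 and 1.56. The largest block of tied peaks held 8.38% of the CSS list and 4.59% of the DHT list.

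**Figure D1:**
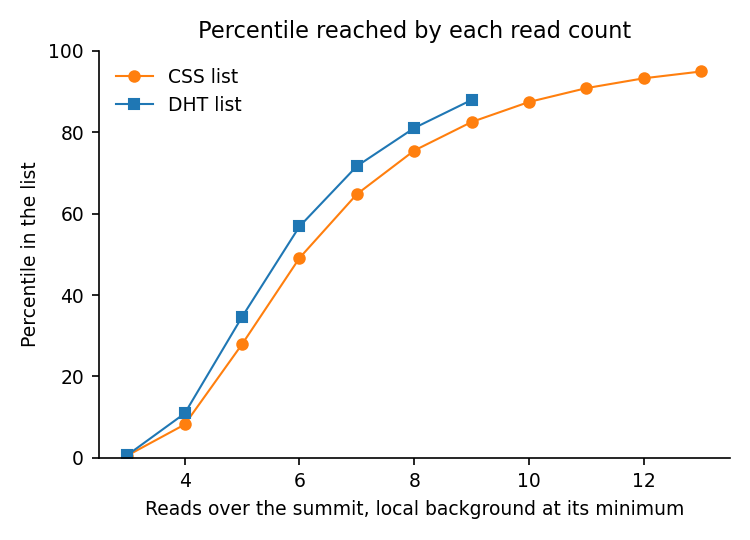
Percentile in the list (vertical axis, by −log10 q) reached by peaks with a given number of reads over the summit (horizontal axis), for peaks whose local background was at the minimum of the list. From 4 to 6 reads the percentile goes from 8.19 to 49.1 in CSS (circles) and from 10.9 to 56.8 in DHT (squares).

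Over all pairs, ranks with and without DHT were loosely related. Percentile is the rank by −log10 q within a list, with 100 as the highest, and the shift is the DHT percentile minus the CSS percentile. A shift compares ranks in lists of different length and depth, so it is not by itself a change in binding. The median shift was -2.22 points with quartiles of -19.8 and 13.9, and the extremes were -93.9 and 95.1. Spearman's rho between the percentiles was 0.472 over the 20884 pairs (0.359 over the 2270 pairs with a −log10 q of at least 10 in both lists), which share cells, antibody and regional read coverage. With DHT, 3394 pairs stood over 25 points higher (16.3% of pairs) and 4264 stood over 25 points lower (20.4%). Shifts of over 50 points were found for 924 pairs upward (4.42%) and 1215 downward (5.82%). The order of the shares turned when percentiles were taken among the paired peaks only, to 19.4% higher and 19.1% lower. With a −log10 q of at least 5 required in both lists the shares were 4.51% and 7.82%. In exclusive pairs alone the shares at 25 points were 15.9% and 20.5%. The cut at 25 points separates like pairs: the 50 pairs just over it upward and the 50 just under it both had medians of 8 CSS and 11 DHT summit reads. At the downward cut, the medians were 10.5 CSS and 8 DHT reads just past it and 11 and 8 just short of it.

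Pairs that were strong in both lists had small shifts. A peak is called strong at a −log10 q of at least 10, which 2270 pairs reached in both lists. Their median absolute shift was 2.78 points, their extreme shifts were -11.2 and 13.3, and 0 of them passed 25 points in either direction. Ranked by fold enrichment in place of −log10 q, their extreme shifts were -42.5 and 49.2, with 5 to 95% of them between -13.8 and 9.08. Pairs strong in 1 list only numbered 4237, with 2772 strong in CSS only and 1465 strong in DHT only. Of the 4237, 718 (16.9%) stood over 25 points higher with DHT and 1054 (24.9%) over 25 points lower. All 718 higher pairs were strong in DHT only, and all 1054 lower pairs were strong in CSS only. Taken as 718 of 1465 and 1054 of 2772, the order of the shares turned, so 16.9% and 24.9% depend on this make-up. Among the 14377 pairs strong in neither list, the shares were 18.6% and 22.3%. A pair high in both lists has little room to shift, so these counts describe where shifts lay and are no test.

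Shifts pointed toward the middle from either side. Each list was cut by percentile into 10 equal parts, with part 1 the lowest. Pairs in part 1 of the CSS list had a median shift of 38.4 points, and those in part 9 one of -11.1. When the same pairs were divided by their DHT percentile the order turned, with a median shift of -43.1 in part 1 and 5.38 in part 9. The list used for the division therefore set the direction of the shift.

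**Figure D2:**
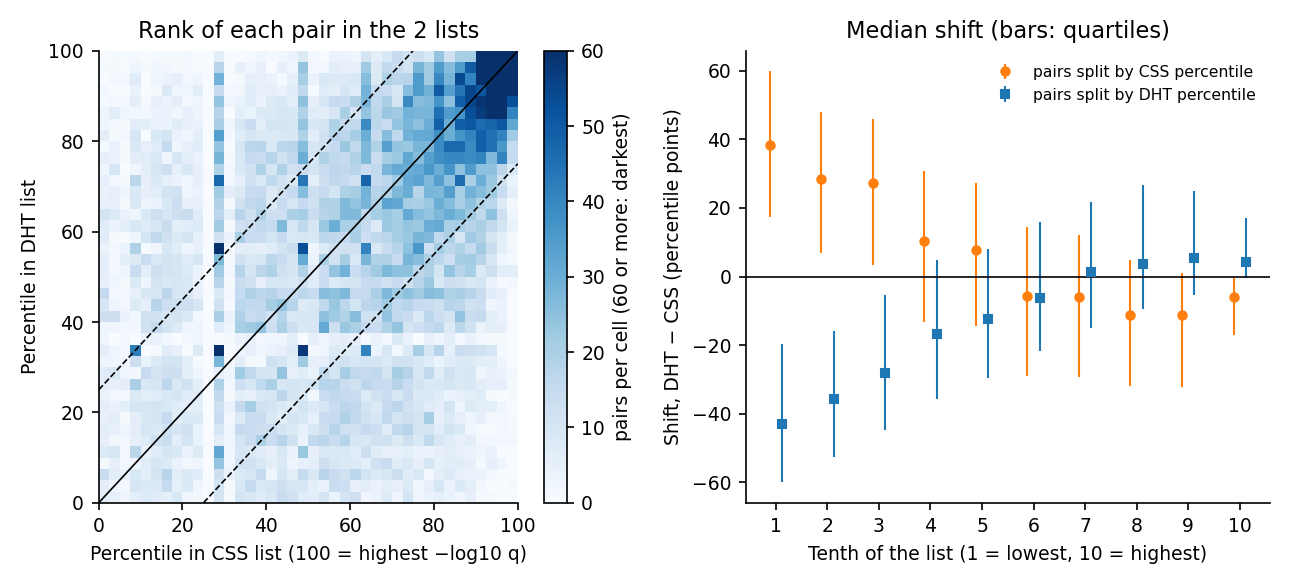
Left: percentile of each of the 20884 pairs in the CSS list (horizontal axis) and in the DHT list (vertical axis), as the number of pairs per cell. The solid line marks equal rank and the dashed lines a shift of 25 points. Right: median shift in percentile points with quartiles, for pairs divided into 10 parts by CSS percentile (circles, 38.4 in part 1) or by DHT percentile (squares, -43.1 in part 1).

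The reads show how small the differences behind these shifts were. Pairs over 25 points higher with DHT had a median of 6 CSS reads and 10 DHT reads over their summits. Pairs over 25 points lower had 11 CSS reads and 7 DHT reads, and the remaining pairs had 10 and 10. The ratio of DHT to CSS reads was divided by 0.752, the ratio of the background minima, so that 1 stands for equal signal at equal coverage. On this scale the median ratio was 1.99 for higher pairs (quartiles 1.77 and 2.33), 0.831 for lower pairs (0.716 and 0.950) and 1.22 for the others. A lower rank did not always go with a lower ratio. The ratio was above 1 in 569 of the 4264 lower pairs (13.3%), and below 1 in 0 of the 3394 higher pairs. In the 50 pairs just past a fall of 25 points the median ratio was 1.06, against 0.950 in the 50 just short of it. Over all pairs the median ratio was 1.20. Both peaks had to be called for a pair to form, at counts from 3 upward in either list, and the part of that requirement in the median above 1 was not tested.

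For nearly all pairs the difference between the conditions was within counting error. The exact 95% interval of the depth-scaled read ratio, which covers counting error only, lay above 1 in 353 pairs (1.69%) and below 1 in 50 pairs (0.239%), and held 1 in 20481 (98.1%). The split depended on the scale. When the summed summit reads of all pairs were set equal, 143 intervals lay above 1 and 209 below, so the share of these intervals that lay above went from 87.6% to 40.6%, while 1.69% of pairs had an interval that left out 1, against 1.93% before. Of the pairs over 25 points higher, 302 of 3394 (8.90%) had an interval above 1, and of those over 25 points lower, 33 of 4264 (0.774%) had one below 1. With the summed reads of all pairs set equal, these numbers were 129 (3.80%) and 96 (2.25%). Shift and read ratio are made from the same reads, so they are not independent of each other. The depth sets this limit. At 10 CSS reads, where equal coverage gives 7.52 DHT reads, an interval leaves out 1 only from 18 DHT reads upward or at 1 read. Smaller differences were not detectable at this depth. Of the 4832 pairs with under 15 summed reads, 0 had an interval that left out 1. No DHT peak had under 3 reads, so no pair with 10 CSS reads could have an interval below 1 on this scale. At 5 CSS reads no DHT count gives one, while 12 DHT reads give one above 1. In the 6453 pairs with 15 to under 20 summed reads, 116 intervals lay above 1 and 0 below. The calling threshold thus entered the split, so 353 against 50, and 8.90% against 0.774%, are no comparison of gains with losses.

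**Figure D3:**
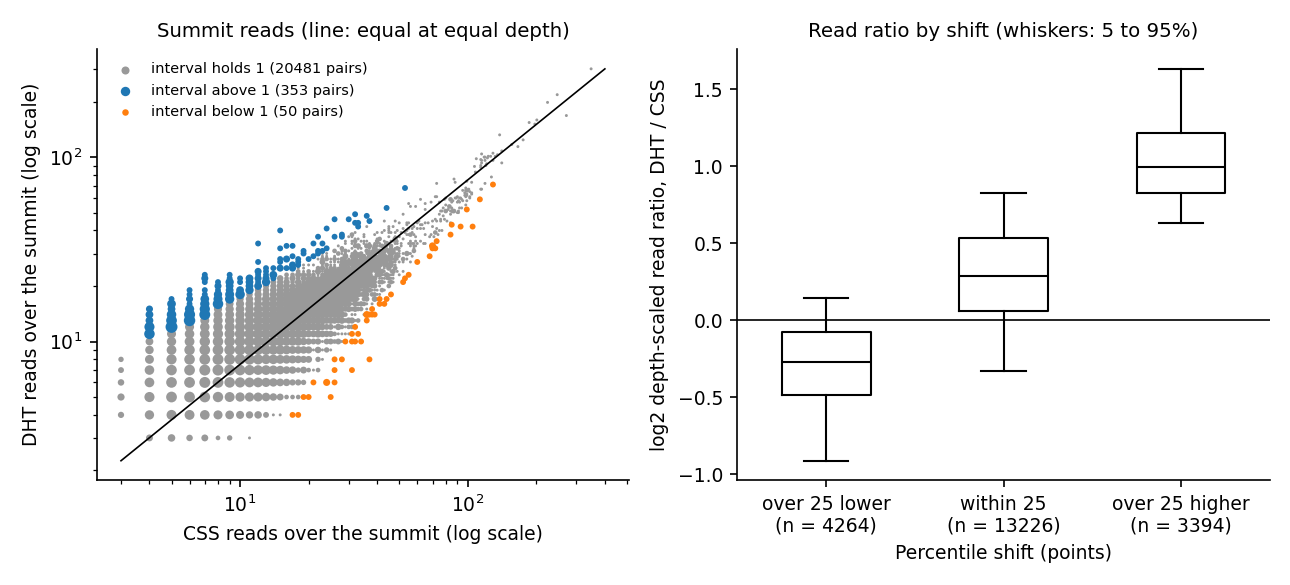
Left: reads over the DHT summit against reads over the CSS summit for each pair, on log axes. Larger points stand for more pairs, the line marks equal signal at equal coverage, and color marks intervals above 1 (353 pairs), below 1 (50 pairs) or holding 1 (20481 pairs). Right: log2 of the depth-scaled read ratio (box: quartiles and median, whiskers: 5 to 95% of pairs) for pairs over 25 points lower, within 25 points and over 25 points higher, whose median ratios were 0.831, 1.22 and 1.99.

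The loci with the largest gains in rank were near the calling threshold in CSS and had 11 to 16 reads with DHT. The largest was at chr16:48500111-48500301, where 4 CSS reads and 15 DHT reads lay over the summits. It went from percentile 2.32 to 97.4, its DHT peak spanned 296 bp against 191 bp in CSS, and its depth-scaled read ratio was 4.99 (1.59 to 20.6). The pair at chr19:58125638-58125913 had 5 and 16 reads and went from percentile 3.12 to 98.1 (ratio 4.25, 1.49 to 14.8). Of the 8 largest gains it ranked highest in full serum, at percentile 99.02 of the FBS list.

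A pair at chr10:89742887-89743077 had 4 and 14 reads and a shift of 92.5 points. A pair at chr12:27434054-27434280 had the same counts and a shift of 92.0 points, with summits 8 bp apart. At chr5:104617581-104617771, 4 and 15 reads gave a shift of 90.3 points (ratio 4.99, 1.59 to 20.6), and the 10 kb around it held no more CSS reads than the list minimum. The pair at chr1:149350915-149351130 had 4 and 12 reads and a shift of 91.1 points. The 8 largest gains among pairs strong in at least 1 list were these 6, a pair at chr2:240449054-240449564 (5 and 16 reads, shift 89.4) and a pair at chr3:61475084-61475274 (4 and 11 reads, shift 89.3). All 8 were exclusive pairs and all 8 intervals lay above 1, the lowest bound being 1.08, at the chr3 pair. With the summed reads of all pairs set equal that bound was 0.938, and 7 of the 8 intervals lay above 1. They were picked as extremes out of 20884 pairs, so their values are a description and no test.

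The loci with the largest losses in rank had 12 to 24 reads in CSS and 4 to 8 with DHT. At chr10:103795253-103795567, 24 CSS reads and 6 DHT reads lay over the summits, and the pair went from percentile 97.8 to 3.84. Its peak was 315 bp wide in CSS and 198 bp, the narrowest width of the list, with DHT. Its ratio was 0.332 (0.111 to 0.835), and on this scale it was the only one of the 8 largest losses with an interval below 1. The pair at chr8:49782792-49783246 had 15 and 4 reads and a shift of -93.3 points (ratio 0.355, 0.0856 to 1.11).

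With the summed reads of all pairs set equal, the intervals of 3 of the 8 largest losses lay below 1, those at chr8 (upper bound 0.964) and chr22 (0.894) being the others. The pair at chr7:158058770-158059209 had 16 and 6 reads and a shift of -89.9 points. At chr22:17439894-17440144, 18 and 5 reads gave a shift of -88.6 points (ratio 0.369, 0.107 to 1.03). The pair at chr13:33289890-33290267 had 20 and 8 reads, a shift of -88.2 points and a rich background of 94 CSS and 75 DHT reads in 10 kb. At chr12:133706568-133707166, 15 and 5 reads gave a shift of -88.1 points, and this CSS peak of 599 bp overlapped 2 DHT peaks. The last of these losses lay at chr15:83620960-83621293 (17 and 6 reads, shift -87.7) and at chr1:163515776-163516084 (12 and 4 reads, shift -87.7). An FBS peak was present at 3 of the 8 losses and at 4 of the 8 gains, and at 57.4% of all pairs.

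Ranking the pairs by reads in place of percentile gave other loci, picked with their values in view. The interval with the highest lower bound was at chr9:138993400-138993793, with 15 CSS and 40 DHT reads (ratio 3.55, 1.92 to 6.91). Its shift was only 24.4 points, because the CSS peak already stood at percentile 75.5. The next was at chr7:79764365-79764627, with 12 and 34 reads (3.77, 1.90 to 7.99), where 1 DHT peak overlapped 2 CSS peaks. Its DHT summit was displaced by -458 bp, toward lower coordinates and outside this CSS peak. The 2 counts therefore come from different positions. At chr1:3808672-3809000 there were 7 and 23 reads (4.37, 1.81 to 12.1), and reads in the surrounding 10 kb went from 38 in CSS to 75 in DHT. A pair at chrX:148766599-148766893 and a pair at chr2:132182347-132182750 each had 7 and 22 reads (4.18, 1.72 to 11.6).

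In the other direction the lowest upper bound was at chr12:133369597-133370312, with 37 CSS and 8 DHT reads (0.287, 0.116 to 0.627). Its 10 kb window also held fewer reads, 127 in CSS and 46 in DHT. The same was seen at chr19:524745-525229, with 31 and 7 summit reads (0.300, 0.112 to 0.695) and 97 and 38 reads in 10 kb. It was seen again at chr11:134526492-134526962, with 25 and 5 summit reads (0.266, 0.0795 to 0.707) and 49 and 15 in 10 kb. A further pair at chr11:45123080-45123825 had 26 and 6 summit reads (0.307, 0.103 to 0.762) and 86 and 26 in 10 kb. The pair at chr2:92290517-92291699 had 105 and 42 summit reads (0.532, 0.363 to 0.767) but a shift of -1.08 points, since both peaks stood above percentile 98. Its CSS peak overlapped 2 DHT peaks, and the DHT summit was displaced by -723 bp, toward lower coordinates. The 2 counts of this pair therefore come from different positions.

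Strong sites with the smallest change in rank had many reads, and the way they were chosen favors such sites. Above the 90th percentile, 1 further read would have moved the median paired peak by only 0.907 points in CSS and 1.56 in DHT. The pair at chr3:196625524-196625909 had 115 CSS and 96 DHT reads over summits 5 bp apart, a ratio of 1.11 (0.837 to 1.47). The pair at chr2:33141175-33141655 had 87 and 76 reads over summits 1 bp apart (1.16, 0.842 to 1.60). The pair at chr21:11186072-11186822 had 58 and 42 reads (0.963, 0.631 to 1.46), although its peak spanned 751 bp in CSS and 481 bp with DHT. All 3 stood above percentile 99.9 in both lists. The labels mention no control library, so how much of the signal at such sites depends on the antibody was not tested.

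The read ratio was lowest in the pairs with the most reads. The median depth-scaled ratio was 1.33 in the 4832 pairs with under 15 summed reads, 1.20 in the 6453 with 15 to 19, 1.22 in the 6129 with 20 to 29, 1.05 in the 2395 with 30 to 49 and 0.925 in the 921 with 50 to 99. In the 154 pairs with at least 100 reads it was 0.877, and 12 of those intervals lay below 1 against 1 above. With 50 to 99 reads the balance was the other way, with 16 intervals below 1 and 24 above. Scaled by reads per kb alone, the ratios of these last 2 classes were 0.959 and 0.909, and with the summed reads of all pairs set equal they were 0.801 and 0.760, so they stayed below 1 under each of these scalings. The pairs with 30 to 49 reads did not keep a side, with 1.05, 1.09 and 0.909. The part of the calling threshold in this order was not tested.

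Read density in the 10 kb around the sites was also compared. Both 10 kb windows were above the list minimum in 17914 pairs, and across these Spearman's rho between CSS and DHT window reads was 0.907, and between CSS and DHT summit reads it was 0.641. A window holds more reads than a summit, so the coefficients differ in counting depth. The window includes the reads of the peak itself, and windows of neighbouring peaks overlap. After division by the depth ratio of 0.726, the window ratio had a median of 1.12. It was 1.31 in the 2485 such pairs over 25 points higher, 1.03 in the 3827 over 25 points lower and 1.12 in the 11602 others. The CSS background was at the minimum in 25.7% of the pairs over 25 points higher, in 5.44% of those over 25 points lower and in 10.3% of the others. For the DHT background these shares were 5.98%, 7.53% and 4.84%, so the order of higher and lower pairs turned. The background enters −log10 q, so these shares are not independent of the shift.

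Widths changed with rank. Peaks were 282 bp wide in CSS and 288 bp with DHT at the median of the pairs, and the median change within a pair was 7 bp (quartiles -71 and 65), equal to the difference between the narrowest widths of the lists. The DHT peak was the wider in 53.04% of pairs and the CSS peak in 46.5%. A DHT peak at least 2 times as wide was found in 1185 pairs (5.67%) and one at most 0.5 times as wide in 1204 (5.77%). Among pairs over 25 points higher, the DHT peak was the wider in 78.6%, with a median change of 52 bp. Among those over 25 points lower, it was the wider in 30.02%, with a median change of -45 bp. Width and rank are both set by the reads of the peak. In 33.5% of the higher pairs the CSS peak was within 2 bp of the narrowest width of its list, and in 28.5% of the lower pairs the DHT peak was.

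Large width ratios were more frequent where a peak overlapped more than 1 peak of the other list. In exclusive pairs, 2.55% had a ratio of at least 2 and 4.27% one of at most 0.5, while in the other 2632 pairs the shares were 27.4% and 16.1%. The largest ratio was at chr2:202147169-202147359, where a CSS peak of 191 bp overlapped a DHT peak of 1713 bp that overlapped 2 CSS peaks. The CSS peak had 21 reads and the DHT peak 24, with summits 1046 bp apart. Similar pairs lay at chr6:125710768-125710958 (191 and 1545 bp) and at chr10:69450735-69450930 (196 and 1402 bp), and in each of them the DHT peak overlapped 2 CSS peaks. The smallest ratios were in exclusive pairs. They lay at chr4:185887805-185888957 (1153 bp in CSS, 227 bp in DHT, with 21 and 11 reads), at chr5:10639120-10640039 (920 and 198 bp, 14 and 5 reads) and at chr15:102285671-102286613 (943 and 207 bp, 14 and 8 reads). Those intervals of the read ratio held 1 in all 3.

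Among the widest sites, the order of the widths depended on which list set the cut. In 332 pairs both peaks spanned at least 1000 bp. The median width was 1322 bp in CSS and 1218 bp with DHT, and the CSS peak was the wider in 213 of them. With only the CSS peak required to span 1000 bp (679 pairs) the CSS peak was the wider in 560, and with only the DHT peak required to (517 pairs) the DHT peak was the wider in 302. The summits of the 332 pairs held a median of 36 CSS and 24 DHT reads, and the depth-scaled ratio had a median of 0.900, with 229 of 332 below 1. The median was 0.933 when scaled by reads per kb alone and 0.780 with the summed reads of all pairs set equal. The DHT list has fewer reads, and the part of depth in these widths was not tested.

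Summits mostly lay close together, on either side of each other. The distance between the CSS and DHT summits had a median of 63 bp (quartiles 26 and 136), 24.8% of pairs had summits within 25 bp and 15.1% had them over 200 bp apart. The signed distance had a median of 0 bp with quartiles of -63 and 62. Paired peaks overlap, so their summed widths cap the distance between summits. The distance rose with the width of the site, and the part of this cap was not tested. It was 42 bp in the 4407 pairs whose wider peak was under 250 bp, 56 bp from 250 bp to under 500 bp, 128 bp from 500 bp to under 1000 bp and 204 bp at 1000 bp or more. By summed reads it was 58 bp in pairs with under 15, 61, 64, 81 and 91 bp in the classes up to 100 reads, and 18 bp in the 154 pairs with at least 100. Pairs over 25 points higher had a median distance of 63 bp, those over 25 points lower 77 bp and the others 59 bp.

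**Figure D4:**
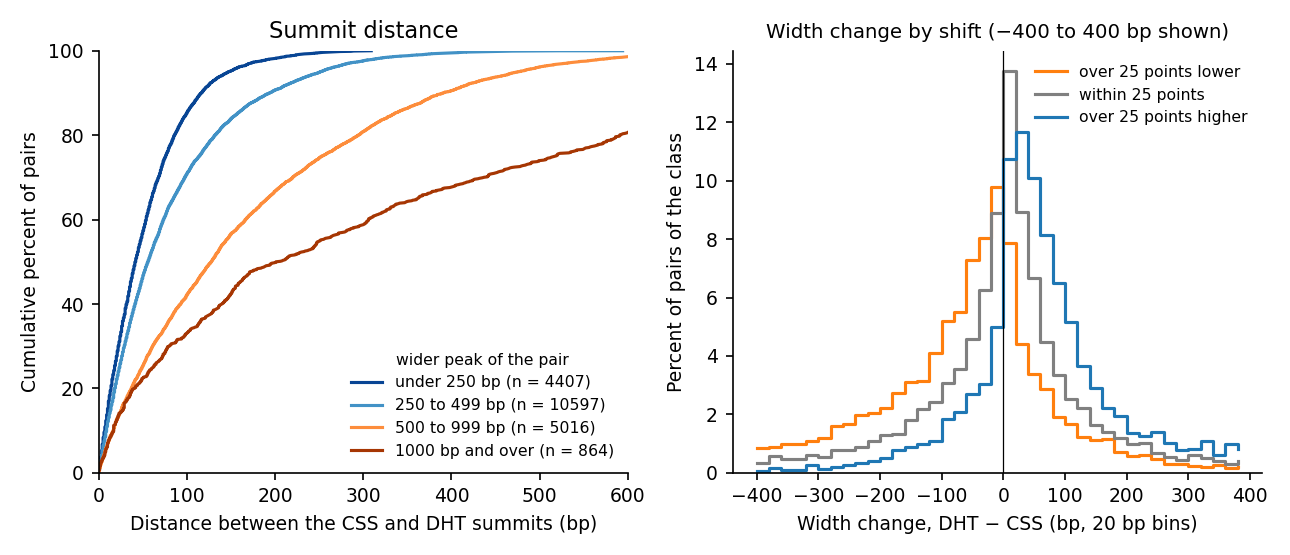
Left: cumulative percent of pairs by the distance between their CSS and DHT summits in bp, for 4 classes of the wider peak of the pair, with medians of 42 bp (under 250 bp) to 204 bp (1000 bp and over). Right: change in width, DHT minus CSS, in bins of 20 bp as a percent of each class, with medians of -45 bp in pairs over 25 points lower, 7 bp in pairs within 25 points and 52 bp in pairs over 25 points higher.

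The largest summit moves between peaks under 1000 bp were within broad sites. At chr9:86419077-86419946 the DHT summit was displaced by -946 bp (a negative sign is toward lower coordinates), with 33 CSS and 21 DHT reads, and each peak overlapped 2 peaks of the other list. At chr8:66753661-66754639 it was displaced by 914 bp, in an exclusive pair with 17 and 13 reads (ratio 1.02, 0.454 to 2.22). The others lay at chr9:19434322-19434651 (-807 bp), at chr19:5701686-5702578 (-771 bp), at chr15:89942703-89943135 (761 bp) and at chr21:46292972-46293537 (753 bp). The last of these had 12 and 20 reads and a shift of 58.03 points. In 4 of these 6 pairs a peak overlapped 2 peaks of the other list.

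Full serum, which had no part in forming the pairs, had a peak at more than 50% of the pairs in each class of shift. The FBS list rests on 4.51 times the depth of the CSS list. An FBS peak overlapped 57.4% (55.7 to 59.04%) of the pairs over 25 points higher, 59.8% (58.3 to 61.2%) of those over 25 points lower and 56.6% (55.8 to 57.5%) of the others. The FBS partners stood at a median percentile of 82.2, 84.3 and 84.3 of their list. Divided by strength, an FBS peak overlapped 49.7% of the pairs strong in both lists and 49.3% of those strong in 1 list only. The share was 61.0% in the pairs strong in neither list, so it was not highest at the strongest pairs. Among pairs with a mean percentile of 30 to 50 over both lists, the shares were 58.3% (55.5 to 61.04%), 63.5% (61.2 to 65.8%) and 63.9% (61.6 to 66.1%), and with one of 50 to 70 they were 56.8%, 58.9% and 62.4%. With a −log10 q of at least 5 in both lists the order of gains and losses turned, to 58.8% and 54.3%. The share also varied with the width of the wider peak of the pair. It was 37.6% under 250 bp, 57.7% from 250 bp to under 500 bp, 73.9% from 500 bp to under 1000 bp and 58.4% at 1000 bp or more. Median CSS widths were 214 bp in the higher pairs, 317 bp in the lower pairs and 297 bp in the others. The part of width in the class shares was not tested. Intervals cover counting error only, and neighbouring peaks are not independent.

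Shifts were spread over all chromosomes. The share of pairs over 25 points higher lay between 12.5% (9.29 to 16.4%) on chromosome 22 and 19.1% (15.5 to 23.1%) on chromosome 16, and the share over 25 points lower between 16.6% (13.8 to 19.8%) on chromosome 13 and 221 of 961 pairs (20.4 to 25.8%) on chromosome 17. The median shift ran from -4.36 points on chromosome 22 to 0.890 on chromosome X, the only chromosome with a median above 0. Chromosome X also had the largest median depth-scaled read ratio, 1.33 over 571 pairs, the same as in the pairs with under 15 summed reads. Its 10 kb window ratio did not stand out upward, with a median of 1.09 against 1.12 over all chromosomes. An FBS peak overlapped 33.8% of its pairs, the lowest share of any chromosome. These chromosomes were picked as extremes, and no test between chromosomes was made.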

How the data were processed

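ZBTB7A ChIP-seq was done on 5 libraries of VCaP cells, and 3 deposited peak lists in narrowPeak format were used, 1 per condition. The submitters' processing notes name MACS2 2.0.10.20131216 among the tools, beside BWA 0.7.2-r351 and SAMtools 0.1.18, and the build hg19. The labels do not say how libraries were combined or reads filtered. Per peak, the authors deposited a fold enrichment (a ratio over background), a −log10 p, a −log10 q and a score, which was not used. These are the authors' values and describe peaks within a list.

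From them, peaks were paired by largest overlap (ties to the higher −log10 q), ranked by −log10 q with mean ranks for ties, and summit reads were recovered from fold and −log10 p. Read ratios have exact conditional binomial intervals and shares exact Clopper-Pearson intervals, both at 95%. They cover counting error only, and reads may include amplification copies. Recovery was tested on simulated data, where 100% of 35799 CSS and 32382 DHT peaks returned their read count. The pairing code returned 99.8% of 18179 planted partners, and its number of pairs equalled that of bedtools 2.31.1. Values were computed with scipy 1.17.1, pandas 2.3.3 and numpy 2.4.6 in Python 3.11.15, and plots drawn with matplotlib 3.10.9.

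Named pairs are the 6 largest gains and losses in percentile, the 8 largest among pairs strong in at least 1 list, the 3 largest summit moves in each direction between peaks under 1000 bp, the 3 largest and smallest width ratios, and the 3 strong exclusive pairs with the smallest change in rank by fold and then by −log10 q. Those ranked by read ratio, all uses of recovered reads and their matching tolerance, the classes by reads, width and full serum, and the 1 Mb windows and neighbours were added after seeing the data. The pairing rule and lists were chosen with earlier results of these data known. Genomic location, sequence words and a list of androgen-responsive genes needed an hg19 annotation and sequence and were not analysed here.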

Additional observations from a re-analysis of the deposited data

Results flagged for a closer look

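Pairs were also found on sequences that the pairing rule leaves out. Chromosome Y held 160 pairs, formed from 299 CSS and 234 DHT peaks. Sequences other than chromosomes 1 to 22, X and Y (alternate haplotypes, unplaced contigs and the mitochondrial genome) held 411 pairs, formed from 809 CSS and 650 DHT peaks. They are listed because they lie outside the 20884 pairs described above and each count is above 0. No comparison was made with them.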

How the results depend on the processing

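Each alternative changed 1 choice. Of 60 values of the main results under alternatives, 21 were within the 95% interval (for numbers of pairs, within 1.5 times) of the value in the report. The other 39 were outside it. Only the median shift and the median width change can be negative, and neither changed sign. The shares over 25 points higher and lower changed order with percentiles among paired peaks. So did the intervals above and below 1 with the summed reads of all pairs set equal. Those that moved are given here, and the cause was not tested unless the construction shows it (fewer pairs, closer peaks). Pairing each CSS peak with the DHT peak of nearest summit, within 100 bp and with no overlap required, gave 13869 pairs, and a −log10 q of at least 5 in both lists gave 10669. The median shift was -0.582 points with percentiles among paired peaks, -1.74 with 50% of both peaks overlapping, -1.36 with summits within 100 bp and -3.66 when DHT peaks took a CSS partner. In the same order, the share over 25 points lower was 19.1%, 18.2%, 19.01% and 22.7%. The share over 25 points higher was 19.4% among paired peaks, 15.2% with the 50% overlap and 14.7% when DHT peaks took a partner. At a −log10 q of at least 5 in both lists, the shares were 4.51% higher and 7.82% lower. The median width change was 2 bp at that threshold and 5 bp without the narrowest peaks. Width ratios of at least 2 were found in 0.0248% of pairs with the 50% overlap, 2.73% with summits within 100 bp, 2.55% of exclusive pairs, 3.69% at that −log10 q and 5.09% without the narrowest peaks, and ratios of at most 0.5 in 0.0435%, 4.54%, 4.27% and 4.60% for the first 4 of these. The median summit distance was 49 bp with the 50% overlap, 56 bp in exclusive pairs, 54 bp at a −log10 q of at least 5 and 51 bp with both peaks under 500 bp, and the shares within 100 bp were 76.5%, 70.5%, 69.5% and 75.3%, against 65.6%. The FBS share of lower pairs was 54.3% at a −log10 q of at least 5 and 58.2% with percentiles among paired peaks, and at the first of these the order of higher (58.8%) and lower pairs turned. With the summed reads of all pairs set equal, 143 read intervals lay above 1 and 209 below, and with those of pairs strong in both lists set equal 79 lay below. These scalings were chosen after seeing the data. Ranking by fold enrichment kept 93.3% of the pairs over 25 points higher and 91.5% of those over 25 points lower. No paired analysis was possible because each condition has a single list, with no values by library, and leaving out a library was likewise not run. The alternative for sequence words was not run.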

Other observations

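Divided by signal in full serum, a readout from another library, the pairs showed no steady trend in the DHT to CSS ratio. The summed summit reads gave a depth-scaled ratio of 1.10 in the 1096 pairs whose FBS peak had 6 to 9 reads, 1.13 at 10 to 14, 1.22 at 15 to 24, 1.23 at 25 to 39 and 1.09 in the 814 pairs with 40 or more. It was 1.13 in the 8899 pairs with no FBS peak. Shifts in both directions were least frequent in the pairs with 40 or more FBS reads, where 9.95% stood over 25 points higher and 11.4% over 25 points lower. These 814 pairs held 25610 CSS and 21023 DHT summit reads, against 14146 and 11733 in the 1096 pairs with 6 to 9 FBS reads. Pairs high in both lists have little room to shift, and the part of this in the shares was not tested. Summits lay 48 bp apart at the median in pairs with no FBS peak and 98 bp apart in pairs with 25 to 39 FBS reads, whose peaks were wider (384 bp against 247 bp in CSS).

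Neighbouring pairs were related in shift and read ratio mainly within 10 kb. Between neighbours up to 10 kb apart, Spearman's rho of their shifts was 0.126 over 2960 neighbours, which share reads of the 10 kb window. It was 0.0142 over 9458 neighbours from 10 to 100 kb apart and 0.0161 over 8281 from 100 kb to 1 Mb apart. For the log2 read ratio, rho was 0.287, 0.0260 and 0.00933 over the same neighbours. Neighbours within 10 kb can also hold the same DHT peak, since the 20884 pairs hold 20169 distinct DHT peaks. This enters both coefficients, and its part was not tested. Among 86 windows of 1 Mb with at least 20 pairs, the median shift ran from -19.9 points on chromosome 1 at 161000001 to 162000000, where 10 of 21 pairs stood over 25 points lower and 1 higher, to 6.67 points on chromosome 12 at 6000001 to 7000000, where 7 of 27 stood over 25 points higher and 5 lower. These windows were picked as extremes after their values were seen.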
